A study of Mus musculus with 4 samples.

Results

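Glucuronosyltransferases, glutathione transferases and sulfotransferases were examined as 7 gene families on 4 mouse arrays. The members were every gene whose name on the array began with Ugt1, Ugt2, Gsta, Gstm, Gstp, Gstt or Sult, which gave 45 of the 30119 genes on the design, read by 70 probes. They divided into 3 Ugt1, 9 Ugt2, 3 Gsta, 7 Gstm, 2 Gstp, 4 Gstt and 17 Sult genes. The study hybridised 1 RNA sample of each of 4 kinds: o-organoid and y-organoid, both sourced as crypt-villus organoids, then crypt, and intestine, sourced as whole intestine. Organoids of this kind are small epithelial structures grown in culture. All 4 samples were labelled as wild type and of strain C57/BL6, while the meaning of y and o, the animals' age and sex, and any pooling of animals were not stated in the labels. Total RNA was labelled with Cy3 by a low-input method, from 40 ng for o-organoid and 20 ng for each of the others. With 1 array a group, no difference below has a replicate check and no test was possible.

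These enzymes carry out the conjugation step of drug and hormone metabolism, which makes small molecules more water soluble so that they can be pumped out of the cell. Glucuronosyltransferases sit in the endoplasmic reticulum and add glucuronic acid from UDP-glucuronic acid; glutathione transferases are mostly cytosolic and add glutathione to reactive electrophiles; sulfotransferases move a sulfate group from the donor PAPS. The absorptive cells of the small intestine are a main site of all of these reactions outside the liver. Many of the genes are inducible through nuclear receptors such as Pxr and Car or through the oxidative stress factor Nrf2, and many lie in clusters of similar copies.

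Because the families hold close relatives, the probes of the pairs whose values matter most below are shown with the bases that differ in capitals, each 5′ to 3′ as deposited. The first set holds the probes of Ugt1a10 (chr1:89952780-89952839, mm9) and Ugt1a6b (chr1:90004249-90004308, mm9), which differ at 22 of 54 aligned bases. The second holds a probe of Gstp1 (chr19:4035908-4036723, mm9) and one of Gstp2 (chr19:4040983-4041042, mm9), with 5 of 35 aligned bases unlike. The third aligns Gstm3 (chr3:107769290-107770549, mm9), Gstm6 (chr3:107745052-107745111, mm9) and Gstm7 (chr3:107732073-107733247, mm9), where 23 of 55 aligned positions were not the same in all 3. The fourth gives 30-base stretches of the Ugt2b5 probe (chr5:87554155-87554214, mm9) and the Ugt2b37 probe (chr5:87669707-87669766, mm9), a pair with close probes in the Ugt2 family, with 9 of 55 aligned bases unlike over the whole overlap. The probes shown for Ugt1a6b, Gstp2, Gstm3 and Gstm6 are not the brightest of their genes.
Ugt1a10: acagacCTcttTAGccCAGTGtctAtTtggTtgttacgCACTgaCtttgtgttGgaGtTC
Ugt1a6b: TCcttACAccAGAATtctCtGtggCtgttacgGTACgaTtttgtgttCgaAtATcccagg
Gstp1: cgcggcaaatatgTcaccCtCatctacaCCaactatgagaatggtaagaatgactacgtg
Gstp2: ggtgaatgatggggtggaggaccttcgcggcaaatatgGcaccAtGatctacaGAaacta
Gstm3: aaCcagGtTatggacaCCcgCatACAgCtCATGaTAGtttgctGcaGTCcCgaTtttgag
Gstm6: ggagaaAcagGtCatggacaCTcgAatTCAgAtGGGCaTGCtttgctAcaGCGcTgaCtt
Gstm7: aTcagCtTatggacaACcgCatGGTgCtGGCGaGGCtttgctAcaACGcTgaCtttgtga
Ugt2b5: gaaCAaactttcagcctcattctTatttat
Ugt2b37: gaaTGaactttcagcctcattctAatttat
Over all 70 member probes, 4 shared a run of at least 20 bases with a probe of another gene. One was the probe of Gsta2, which matched 53 of 60 bases of the probe for the predicted gene Gm10639, so the reading given for Gsta2 may hold signal of that gene. The other 3 were the probes of Sult2a1, Sult2a2 and Sult2a4, none of them above background.

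Signals are given as log2 intensity relative to the 75th percentile of the same array, and each gene is read by its brightest probe, so that a value compares arrays for 1 probe and never ranks genes. Of the 45 genes, 30 were well above background on all 4 arrays, 2 (Sult1a1 and Sult5a1) on some, and 13 on none. Of all spots, 55.1% were above background for o-organoid, 54.2% for y-organoid, 51.9% for crypt and 58.7% for intestine. Probes spotted 10 times on the same array placed the SD of a difference between arrays at 0.082 to 0.10, which covers spot error only. The 8 epithelial markers examined were above background on all 4 arrays, whereas the 6 stromal markers were above it for intestine alone. The marker list of enterocytes, the absorptive cells, summed to 271 times the 75th percentile for o-organoid, 97.6 for y-organoid, 1735 for crypt and 2028 for intestine. In RNA from a mix of cells, fewer cells of a type and less RNA per cell cannot be told apart.

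Among the 30 genes measured on all 4 arrays, 16 (53.3%) had their highest signal on the o-organoid array, against 24.5% of the 14440 genes of the whole design measured that way. The y-organoid array held the lowest signal of 13 members, against 23.2% of all genes having their lowest there. Members thus stood highest most often in o-organoid and lowest most often in y-organoid.

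**Figure D1:**
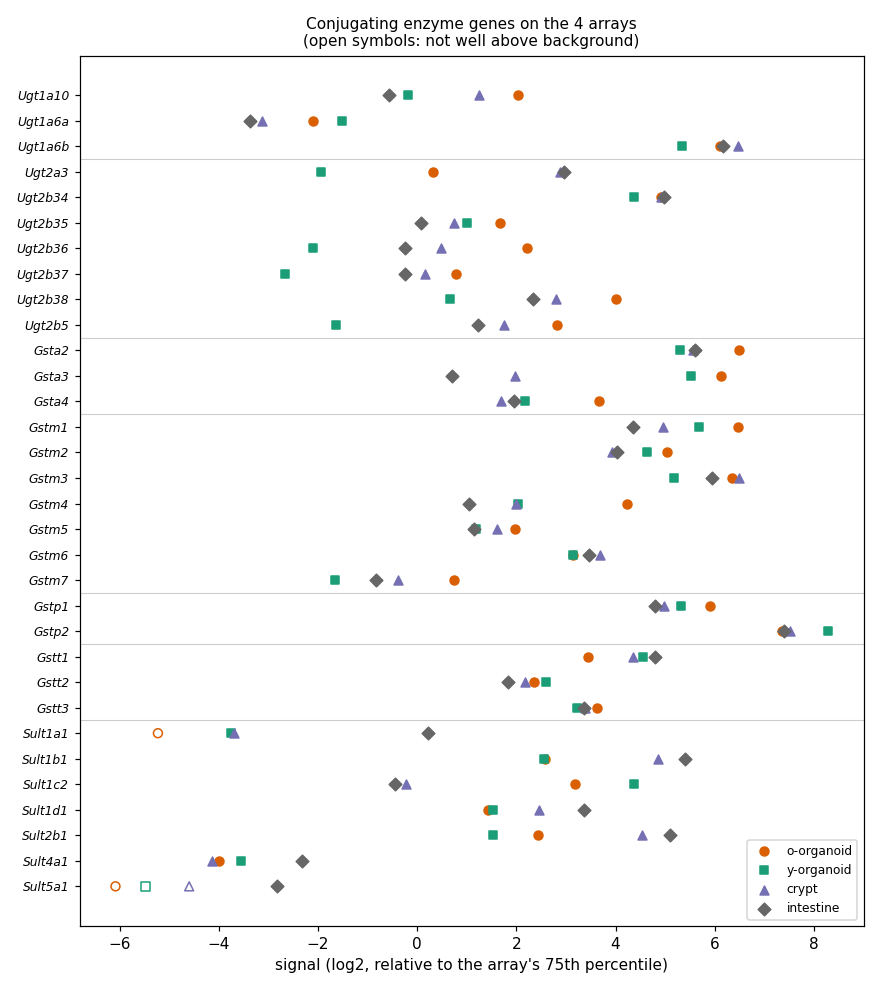
Signal of the 32 member genes above background on at least 1 array, by gene and family; the horizontal axis is log2 intensity relative to the array's 75th percentile, symbols stand for the 4 arrays, and open symbols were not well above background. The o-organoid array is rightmost for 16 of the 30 genes measured on all 4 arrays, and the y-organoid array is leftmost for 13.

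The comparison of o-organoid with y-organoid asked how the organoid samples differed from each other. The 30 members that could be measured in both included 11 at least 2-fold higher in o-organoid and 2 at least 2-fold lower, with Sult1a1 lower by a bound of at least 2.36-fold, against a background over all genes of 8.25% higher and 16.9% lower. At 4-fold, 8 members were higher (background 0.874%) and 0 were lower (background 2.48%), with no test behind the counts. The median over members was 0.67, against -0.18 over all genes. The deposited values, which are scaled to each array's own median, gave 21 higher and 0 lower, and moved the median of all genes by 0.64 toward o-organoid. The 8 genes past 4-fold were Ugt1a10, Ugt2a3, Ugt2b36, Ugt2b37, Ugt2b38, Ugt2b5, Gstm4 and Gstm7, while the 2 lower were Gstt1 and Sult1c2. By another probe Gstm4, at 1.53 (log2), and Gstm7, at 1.83, missed 4-fold.

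**Figure D2:**
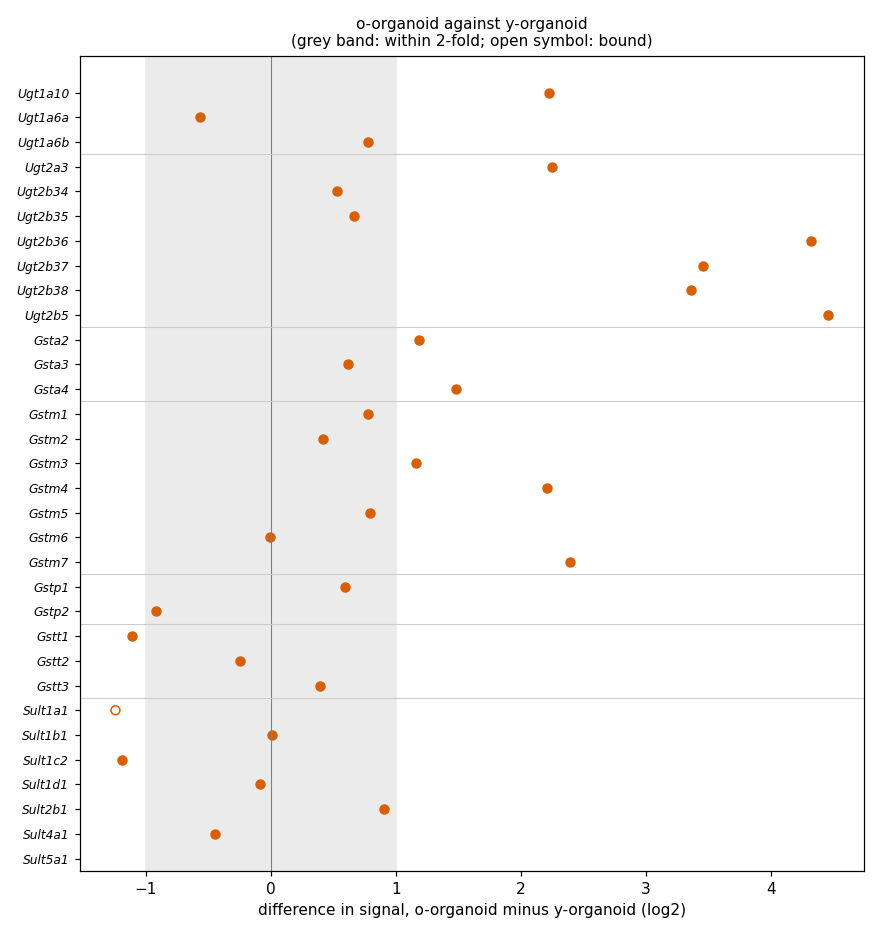
Difference in signal between o-organoid and y-organoid for each member (log2, horizontal axis), with the grey band marking differences within 2-fold and an open symbol a bound for Sult1a1. The 5 Ugt2 genes Ugt2a3, Ugt2b36, Ugt2b37, Ugt2b38 and Ugt2b5 lie between 2.25 and 4.46, and the Gstp, Gstt and Sult genes lie between -1.24 and 0.91.

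Compared with crypt, y-organoid had 3 of 31 members at least 2-fold higher (background 16.0%) and 11 lower (background 13.3%). At 4-fold the counts were 2 higher (background 3.99%) and 7 lower (background 3.98%). The 7 were 5 Ugt2 genes, Sult1b1 and Sult2b1. For o-organoid against crypt, 11 of 30 members were at least 2-fold higher (background 7.94%) and 4 were at least 2-fold lower (background 12.2%), and 1 more, Sult1a1, was lower by a bound. At 4-fold, 3 were higher (background 1.50%) and 3 were lower (background 3.78%). Gstm4, among the 3 higher, was within 2-fold by its other probe, at 0.90 (log2). The median difference from crypt was 0.63 for o-organoid and -0.27 for y-organoid, beside -0.00 and 0.16 over all genes. Both comparisons use the same crypt array, so they are not independent of each other.

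**Figure D3:**
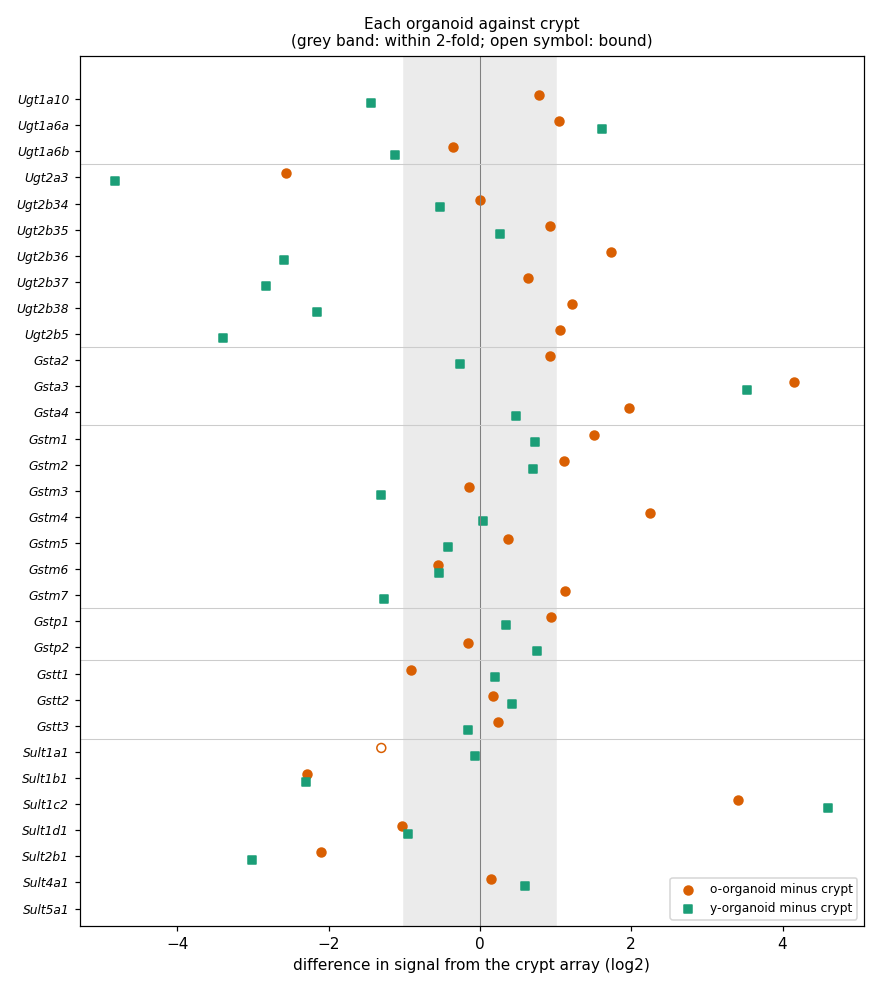
Difference of each organoid from the crypt array (log2, horizontal axis), o-organoid as circles and y-organoid as squares, with the grey band marking differences within 2-fold and the open circle a bound. Gsta3 and Sult1c2 lie above 3 in both organoids, Ugt2a3, Sult1b1 and Sult2b1 lie below -2 in both, and Ugt2b36, Ugt2b38, Ugt2b5 and Gstm7 lie on opposite sides.

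Crypt against intestine showed fewer 2-fold differences than the other comparisons, among the members and over all genes alike. Of 31 measured, 2 were at least 2-fold higher in crypt (background 7.38%), namely Ugt1a10 and Gsta3, and 2 were at least 2-fold lower (background 7.61%), namely Sult1a1 and Sult4a1. At 4-fold, 0 were higher (background 0.316%) and 1 was lower (background 3.02%). Sult5a1, dim in crypt, was lower by a bound of at least 3.27-fold. The deposited values gave 14 higher and 2 lower for this pair, with the median of all genes moved by 0.74 toward crypt. The intestine array differed from the crypt array in more than the epithelium: smooth muscle markers were above background for 6 of 6 genes against 1 of 6 in crypt, and the 7 pancreas markers summed to 5703 times the 75th percentile against 0.83 in crypt. Xist was above background on the intestine array alone, and the Y-linked Ddx3y and Eif2s3y on the other 3, so sex and tissue cannot be told apart in this pair.

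The Ugt1 locus makes its enzymes from alternative first exons joined to shared last exons; the RefSeq annotation of GRCm38.p6 lists 9 Ugt1a genes, 7 of them with the same end. Ugt1a10, an intestinal enzyme in humans, had a signal of 2.03 in o-organoid, -0.19 in y-organoid, 1.25 in crypt and -0.56 in intestine. It was 4.68-fold higher in o-organoid than in y-organoid, 2.71-fold lower in y-organoid than in crypt, and 3.49-fold higher in crypt than in intestine. Its other probe, placed just beside the first, gave 2.12 (log2) for the organoid pair where the brighter gave 2.23.

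Ugt1a6b, an enzyme for small planar phenols, had 2 probes in the files that disagreed. The brighter one may read any transcript that holds the shared last exons, since it lies far beyond the first-exon probe, so its values may not be of Ugt1a6b alone. It (chr1:90115493-90115552, mm9) lies 111 kb downstream of the other and 1.02 kb upstream of the Ugt1a6a probe, and read 6.11 in o-organoid, 5.34 in y-organoid, 6.46 in crypt and 6.17 in intestine. By that probe o-organoid and crypt lay within 2-fold of each other, at a difference of -0.35. The upstream probe, whose sequence is printed above, was 3.29 higher (log2) in o-organoid than in crypt, 2.72 higher than in y-organoid, and 0.58 higher in y-organoid than in crypt. Ugt1a6a, read by 1 probe (chr1:90116514-90116573, mm9), had -2.09 in o-organoid, -1.52 in y-organoid, -3.14 in crypt and -3.37 in intestine. That probe lies 1.02 kb beyond the brighter Ugt1a6b probe, so its values, too, may not be of Ugt1a6a alone. By it the signal was higher than in crypt in both organoids, by 1.04 (log2) in o-organoid and 1.61 in y-organoid. With normexp both differences were within 2-fold, at 0.38 and 0.95. The brighter Ugt1a6b probe, which lies close by, was lower in both.

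The Ugt2 family, whose enzymes conjugate steroids, bile acids and many drugs, had the largest family median between the organoids, with a value of 3.36 over the 7 genes measured, and of at least 2.25 under every setting tried. Ugt2b5 had a signal of 2.82 in o-organoid, -1.63 in y-organoid, 1.76 in crypt and 1.22 in intestine. Ugt2b36 followed the same order, with 2.22 in o-organoid, -2.10 in y-organoid, 0.49 in crypt and -0.24 in intestine. Ugt2b37 stood at 0.79 in o-organoid, -2.67 in y-organoid, 0.16 in crypt and -0.25 in intestine. All 3 were highest in o-organoid and lowest in y-organoid, with crypt above intestine between them. Expressed as folds, o-organoid exceeded y-organoid by 22.0-fold for Ugt2b5, 20.0-fold for Ugt2b36 and 11.0-fold for Ugt2b37. The probes of Ugt2b5 and Ugt2b37 are close enough in sequence that part of either reading may come from the other gene.

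Ugt2b38 gave 4.02 in o-organoid, 0.66 in y-organoid, 2.80 in crypt and 2.34 in intestine, a 10.3-fold difference between the organoids. Ugt2a3, which acts on bile acids in humans, had another order: 0.31 in o-organoid, -1.94 in y-organoid, 2.88 in crypt and 2.96 in intestine. It was 5.91-fold lower in o-organoid and 28.1-fold lower in y-organoid than in crypt, and among the Ugt2 genes it alone was more than 2-fold lower in o-organoid. Ugt2b34 stayed within 2-fold in all 4 comparisons, with 4.91 in o-organoid, 4.38 in y-organoid, 4.91 in crypt and 4.98 in intestine. Ugt2b35 did so too by its brightest probe, at 1.68 in o-organoid, 1.01 in y-organoid, 0.74 in crypt and 0.08 in intestine. Its other probe gave 1.04 (log2) for o-organoid against crypt. Over the settings both genes passed 2-fold in some comparisons, reaching 1.17 for Ugt2b34 and 1.30 for Ugt2b35 between the organoids. Ugt2a1 and Ugt2b1 were not above background on any array; in rodents Ugt2a1 is an olfactory enzyme.

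The largest Ugt2 differences lay side by side on the chromosome. By the mm9 positions of their probes the 9 Ugt2 genes and 3 Sult1 genes lie within 686 kb of chromosome 5. The order runs Ugt2b34, Ugt2b1, Ugt2b35, Ugt2b36, Ugt2b5, Ugt2b37, Ugt2a3, Ugt2b38, Ugt2a1, Sult1b1, Sult1d1 and Sult1e1. The 5 genes at least 4-fold lower in y-organoid than in crypt, Ugt2b36 to Ugt2b38, were consecutive in this order, and the same 5 were at least 4-fold higher in o-organoid than in y-organoid. With normexp Ugt2b36 (-1.95) and Ugt2b37 (-1.84) missed 4-fold against crypt, and Ugt2a3 (1.54) missed it between the organoids. The 2 measured genes on one side, Ugt2b34 and Ugt2b35, differed by -0.53 and 0.27 (log2) between y-organoid and crypt. On the other side Sult1b1 differed by -2.30 and Sult1d1 by -0.94. No test of position was made, and the 3 genes of the stretch that were not above background have no value.

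**Figure D4:**
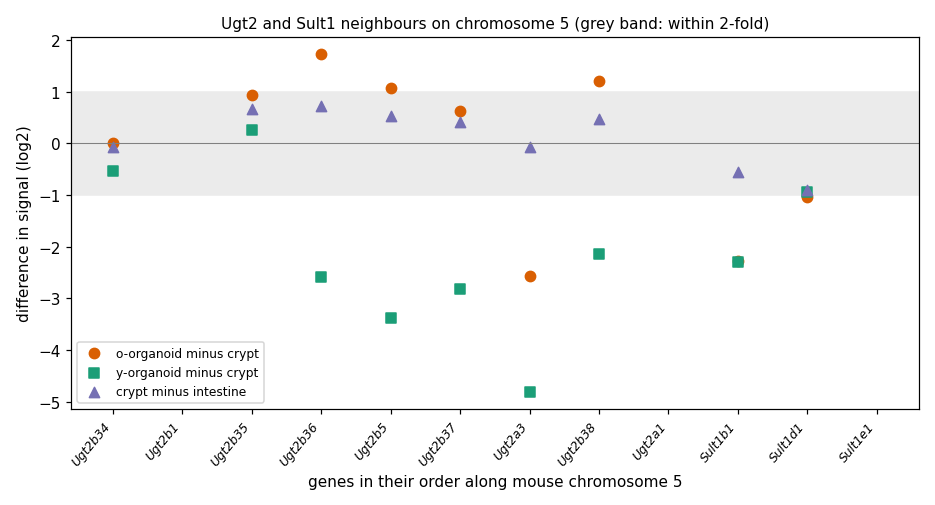
Differences in signal (log2, vertical axis) of the Ugt2 and Sult1 genes in their order along mouse chromosome 5 (horizontal axis, not to scale), for o-organoid minus crypt (circles), y-organoid minus crypt (squares) and crypt minus intestine (triangles); Ugt2b1, Ugt2a1 and Sult1e1 have no symbols because they were not above background. In y-organoid, without normexp, the 5 genes from Ugt2b36 to Ugt2b38 lie between -4.81 and -2.15, and for crypt minus intestine every gene lies within 2-fold.

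The alpha-class glutathione transferases were higher in o-organoid than in crypt and y-organoid for all 3 genes, with medians of 1.97 and 1.19. Gsta3, which in mice conjugates the aflatoxin epoxide, differed most among them, with 6.13 in o-organoid, 5.51 in y-organoid, 1.98 in crypt and 0.69 in intestine. It was 17.8-fold higher in o-organoid and 11.6-fold higher in y-organoid than in crypt. Its 2 probes (the brighter at chr1:21255189-21255248, mm9) gave 4.15 and 4.68 (log2) for o-organoid against crypt and 3.53 and 3.29 for y-organoid against crypt, so both probes placed both organoids far above crypt.

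Gsta4, which detoxifies the lipid peroxidation product 4-hydroxynonenal, was read by 1 probe (chr9:78046172-78047344, mm9) spotted 10 times, which shows the spot error directly. Its sequence is given for that reason, with no base marked.
Gsta4: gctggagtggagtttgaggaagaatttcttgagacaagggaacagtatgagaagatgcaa
Its signal was 3.66 ± 0.030 in o-organoid (SD over 10 spots), 2.18 ± 0.068 in y-organoid (9 spots), 1.70 ± 0.046 in crypt (10 spots) and 1.95 ± 0.055 in intestine (10 spots). The spots of o-organoid, from 3.62 to 3.73, did not overlap those of any other array, but spots of 1 array are not replicates of a condition. Gsta4 was 3.91-fold higher in o-organoid than in crypt. Gsta2, subject to the likeness to Gm10639 given above, read 6.49 in o-organoid, 5.30 in y-organoid, 5.57 in crypt and 5.60 in intestine.

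The 7 mu-class genes were all above background on every array. By their mm9 probe positions they lie within 146 kb of chromosome 3, with Gstm1 placed by its second probe, since the file puts its brightest probe on chromosome 5. Their median was 1.12 for o-organoid against crypt, -0.43 for y-organoid against crypt and 0.46 for crypt against intestine. Gstm4 had 4.24 in o-organoid, 2.03 in y-organoid, 1.99 in crypt and 1.04 in intestine, so that o-organoid was 4.74-fold above crypt and y-organoid differed from crypt by 0.03 (log2). Its other probe gave 0.90 (log2) for o-organoid against crypt, within 2-fold, and -0.63 for y-organoid against crypt. Between the organoids that probe gave 1.53, short of 4-fold. Gstm7 had 0.74 in o-organoid, -1.65 in y-organoid, -0.38 in crypt and -0.83 in intestine. By the brightest probes, Gstm4 and Gstm7 had the largest differences between the organoids in the family, at 2.21 and 2.39 (log2). A second Gstm7 probe, spotted 10 times, read -0.54 ± 0.054 in o-organoid, -2.37 ± 0.11 in y-organoid, -1.65 ± 0.10 in crypt and -1.59 ± 0.094 in intestine (SD over 9, 8, 10 and 9 spots used). By it, too, o-organoid was highest and y-organoid lowest, without overlap between the spots of any organoid and those of the other arrays. As for Gsta4, spots of 1 array are not replicates of a condition.

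Gstm1, a major mu-class enzyme of mouse liver, had 6.47 in o-organoid, 5.69 in y-organoid, 4.97 in crypt and 4.36 in intestine by its brightest probe, whose place outside the cluster puts its identity in doubt. Its probe within the cluster placed o-organoid 8.53-fold above crypt, where the brightest gave 2.84-fold. Gstm2 had 5.04 in o-organoid, 4.63 in y-organoid, 3.93 in crypt and 4.03 in intestine. Both genes were thus at least 2-fold higher in o-organoid than in crypt, Gstm2 by 2.17-fold. Gstm3 read 6.34 in o-organoid, 5.18 in y-organoid, 6.49 in crypt and 5.95 in intestine, and was 2.48-fold lower in y-organoid than in crypt. Gstm5 varied less, at 1.98 in o-organoid, 1.18 in y-organoid, 1.61 in crypt and 1.15 in intestine. Gstm6 had 3.13 in o-organoid, 3.14 in y-organoid, 3.68 in crypt and 3.47 in intestine by its brightest probe, within 2-fold in every comparison. Another of its probes gave -1.26 (log2) for y-organoid against crypt and 1.25 between the organoids.

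Pi- and theta-class genes were mostly within 2-fold. Gstp1 had 5.91 in o-organoid, 5.32 in y-organoid, 4.97 in crypt and 4.80 in intestine. Gstp2 had 7.37 in o-organoid, 8.28 in y-organoid, 7.52 in crypt and 7.39 in intestine. With the scaling used here, neither gene reached 2-fold in any comparison. Over the other settings Gstp1 reached 1.18 (log2) for o-organoid against crypt and 1.23 between the organoids. The sign of the pi-class median between the organoids changed with the setting, from -0.18 to 0.48. Gstt1, which conjugates small halogenated compounds, had 3.45 in o-organoid, 4.56 in y-organoid, 4.36 in crypt and 4.79 in intestine, 2.16-fold lower in o-organoid than in y-organoid. Gstt2 stood at 2.35 in o-organoid, 2.59 in y-organoid, 2.17 in crypt and 1.82 in intestine, and Gstt3 at 3.62, 3.22, 3.38 and 3.36 in the same order of arrays. The theta-class median had either sign, depending on the setting, in all 4 comparisons, and Gstt4 was not above background.

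Of 17 sulfotransferase genes, 5 were above background on all arrays, and the largest differences went both ways. Sult1c2 (chr17:53969205-53969264, mm9), a cytosolic enzyme acting on phenols, had 3.17 in o-organoid, 4.37 in y-organoid, -0.23 in crypt and -0.45 in intestine. It was 10.6-fold higher in o-organoid and 24.2-fold higher in y-organoid than in crypt, and no other member was as far above crypt in y-organoid. Sult1c2 was also 1 of the 2 members more than 2-fold lower in o-organoid than in y-organoid.

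Sult2b1 (chr7:52985450-52985509, mm9), which sulfates cholesterol and related sterols, had 2.44 in o-organoid, 1.53 in y-organoid, 4.54 in crypt and 5.10 in intestine. Sult1b1, an enzyme of phenols and thyroid hormone that is abundant in gut, read 2.57 in o-organoid, 2.56 in y-organoid, 4.86 in crypt and 5.40 in intestine. Both were at least 4-fold lower in each organoid than in crypt, and highest on the intestine array. Over the settings Sult2b1 in o-organoid came as near 0 as -1.92 against crypt, short of 4-fold. Crypt minus intestine ran from -0.76 to 0.18 for Sult2b1 and from -0.75 to 0.19 for Sult1b1, so the order of these arrays depended on the setting. Sult1d1, which in mice acts on catecholamines, had 1.43 in o-organoid, 1.52 in y-organoid, 2.47 in crypt and 3.37 in intestine, the same order of tissue over organoid at a smaller size.

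Sult1a1, the main phenol sulfotransferase, was brightest in intestine at 0.22, against -3.70 in crypt, which is 15.1-fold lower in crypt; with normexp background correction the difference was -2.45 (log2) in place of -3.92. It read -3.76 in y-organoid, and in o-organoid it was not well above background and at least 2.47-fold lower than in crypt, a bound that normexp took to -0.64 (log2), within 2-fold. Sult4a1, a brain member of the family, was dim throughout, with -3.99 in o-organoid, -3.55 in y-organoid, -4.14 in crypt and -2.32 in intestine, and its difference between crypt and intestine, -1.82, came within 2-fold with normexp (-0.87) and as the mean over its probes (-0.15). Sult5a1 was above background on the intestine array alone, at -2.82, and its bound against crypt, too, came within 2-fold with normexp (-0.68). The 3 genes were thus highest on the intestine array. There the summed level was 50.4 for the stromal list, against 0.082 to 0.15 on the other arrays, 85.8 for smooth muscle, against 0.33 to 0.54, and 111 for immune markers, against 12.9 to 41.3. For the pancreas list it was 5703, against 0.83 to 1.31. The part of those tissues in the readings was not tested. Not above background on any array were Sult1c1, Sult1e1 (the estrogen sulfotransferase), Sult2a1, Sult2a2, Sult2a3, Sult2a4, Sult2a6 and Sult2a7 (the hydroxysteroid group), Sult3a1 and Sult6b1.

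Cell type markers also differed between the samples. The 12 enterocyte markers had a median of -3.07 for o-organoid against crypt, -4.19 for y-organoid against crypt and 0.98 for o-organoid against y-organoid, with Slc15a1 not above background in either organoid. For the 6 Paneth cell markers the medians were -0.74 for o-organoid against crypt, -1.92 for y-organoid against crypt and 1.57 for o-organoid against y-organoid. Goblet cell markers had medians of -1.30 in o-organoid and -1.80 in y-organoid against crypt. All 6 stem cell markers were higher than in crypt in both organoids, with medians of 1.15 in o-organoid and 1.58 in y-organoid. Over all genes measured, 7304 of 15016 were higher than in crypt in o-organoid and 8110 of 14851 in y-organoid. The 6 tuft cell markers were all at least 2-fold lower in o-organoid than in y-organoid (background 16.9%), with a median of -1.71, beside -0.18 over all genes. Members lower in both organoids, such as Ugt2a3, Sult1b1 and Sult2b1, differed in the direction of the enterocyte, Paneth and goblet lists, and those higher in both, such as Gsta3 and Sult1c2, in the direction of the stem cell list. The part of cell makeup in any member's difference was not tested.

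Several member genes had more than 1 measured probe, and their median gap between probes was largest in the comparisons that involve o-organoid. Over 16 pairs of a brightest and another probe, the median gap between their differences was 0.23 (log2) for crypt against intestine, 0.44 for y-organoid against crypt, 0.53 for o-organoid against crypt and 0.72 for o-organoid against y-organoid. The direction was shared by 13, 11, 11 and 11 of the 16 pairs in that order of comparisons. For Gstm1, o-organoid against y-organoid was 0.78 by the brightest probe (chr5:117082490-117082549, mm9) and 2.31 by a probe in the chromosome 3 cluster (chr3:107815595-107815654, mm9). For Gstm3 it was 1.16 by the brightest probe and 2.71 by the printed one, and for Gstm6 -0.01 and 1.25. For Gstt1 the difference was -1.11 by the brightest probe and 0.69 by the other, and for Gstp2 -0.92 and 0.29, so the direction of these 2 genes depended on the probe.

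In 12 member genes a 5′ and a 3′ probe could be set against each other on all 4 arrays. They include Ugt1a6b, whose probes lie 111 kb apart and may not read the same transcripts. Ugt1a10, whose probes lie side by side, is also among them. The 5′ probe gave the higher difference for o-organoid against crypt in 11 of the 12, with a median of 0.78 (log2) between the probes, and for o-organoid against y-organoid in 9 of the 12, with a median of 0.72. Over 2976 genes of the whole design the 5′ probe was higher in 67.1% for o-organoid against crypt (median 0.19) and in 50.2% for o-organoid against y-organoid (median 0.00). For y-organoid against crypt it was higher in 5 of the 12 members and in 57.8% of the 2976 genes (median 0.18). The quartiles over the 2976 genes were -0.33 and 0.92 for y-organoid against crypt. They were -0.74 and 0.56 for o-organoid against y-organoid, and -0.12 and 0.49 for o-organoid against crypt. The part of RNA quality or of the larger RNA input for o-organoid was not tested. Genes with 1 probe, which include Ugt2b5, Ugt2b36, Ugt2b37, Ugt2b38, Ugt2a3, Sult1b1, Sult1c2 and Sult2b1, have no such check.

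**Figure D5:**
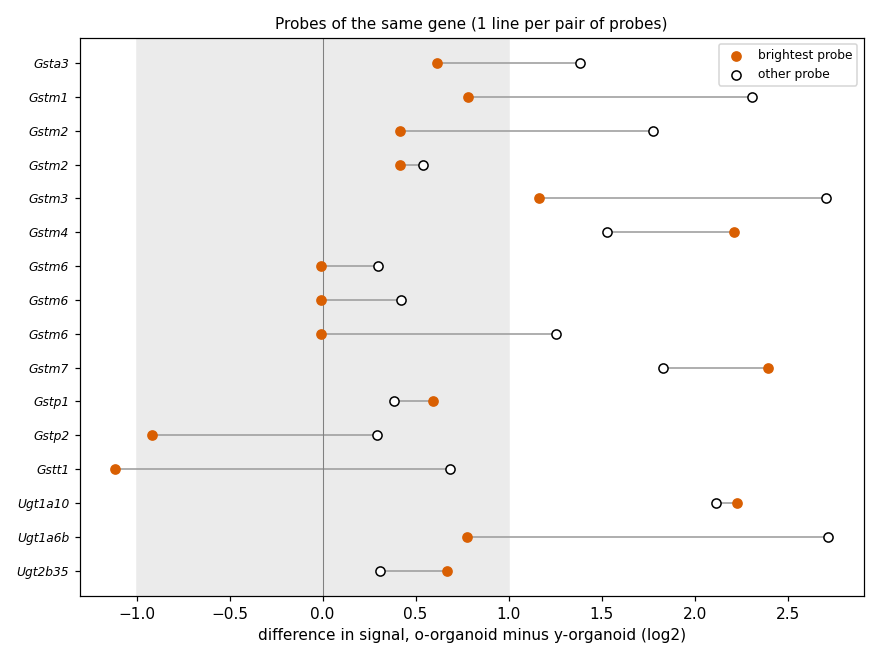
Difference between o-organoid and y-organoid (log2, horizontal axis) by the brightest probe (filled) and another probe (open) of the same gene, with 1 line for each of 16 pairs and the grey band marking differences within 2-fold. Both probes of Ugt1a10 lie above 2, while for Gstt1 and Gstp2 the probes lie on opposite sides of 0.

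The genes that supply these enzymes were examined as lists. Of 12 genes of glutathione supply, 10 were measured in both o-organoid and crypt; 4 of them were at least 2-fold higher in o-organoid (background 7.94%) and 2 were lower (background 12.2%), and 2 more were higher by a bound. Gclc, the catalytic subunit of the first enzyme of glutathione synthesis, had 3.98 in o-organoid, 2.66 in y-organoid, 1.53 in crypt and 0.67 in intestine. Slc7a11, the cystine importer, had -1.61 in o-organoid and -3.80 in y-organoid and was not above background in crypt or intestine. Chac1, which breaks glutathione down, was at least 201-fold higher in o-organoid and at least 123-fold higher in y-organoid than in crypt, where it was dim. Ggt1, which cleaves glutathione at the cell surface, was lower in both organoids, at 0.45 in o-organoid and 0.40 in y-organoid, against 3.69 in crypt. Against intestine, crypt was within 2-fold for 9 of the 10 genes measured, beside 12921 of 15198 over all genes. Crypt was lower for Cbs, with a difference of -4.52 (log2), and for Chac1 by a bound of -3.59. The intestine array also held the pancreas markers given above, and their part in these differences was not tested.

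Of 8 measured genes of sulfate and PAPS supply, 5 were at least 2-fold lower in y-organoid than in crypt (background 13.3%) and 0 were higher (background 16.0%). For o-organoid, 3 were lower (background 12.2%) and 0 were higher (background 7.94%). Papss2, which makes PAPS, read 3.40 in o-organoid, 2.92 in y-organoid, 6.53 in crypt and 7.45 in intestine. Slc13a1, a sodium-sulfate importer, was at -1.83 in o-organoid, -3.15 in y-organoid, 0.19 in crypt and 1.95 in intestine. Slc26a1, a sulfate exchanger, went the other way, at -0.64 in o-organoid and -3.49 in y-organoid, and was not above background in crypt. Of 7 genes of glucuronic acid supply, 4 lay within 2-fold between the organoids. In o-organoid 2 were at least 2-fold higher than in y-organoid (background 8.25%) and 1 was lower (background 16.9%). Ugdh, which makes UDP-glucuronic acid, was 3.24-fold higher and Slc35b4 2.33-fold higher, while Slc35d1 was 2.86-fold lower.

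Of 9 efflux pumps, 3 were at least 4-fold higher in o-organoid than in crypt (background 1.50%): Abcc4 by 3.53 (log2), Abcc5 by 2.08 and Abcc1 by 2.06. In y-organoid these 3 were higher than in crypt by 3.13, 2.03 and 1.94, while Abcg2, an apical pump that carries sulfate conjugates among others, was lower, at -2.58 (log2). Among 7 genes of conjugate cleavage, Dpep1, which splits glutathione conjugates further, was at 1.05 in o-organoid and 0.21 in y-organoid, against 4.23 in crypt. Of the 22 other conjugating enzymes, 15 were measured in both organoids, and 10 of the 15 were lower in o-organoid, beside 8898 of 15554 over all genes. The median with bounds included, over 17 genes, was -0.31, beside -0.18 over all genes. The 3 at least 2-fold higher in o-organoid (background 8.25%) were the membrane-bound Mgst1, Mgst2 and Mgst3, at 1.85, 1.23 and 1.67. Ltc4s was 3.33-fold lower (background 16.9%), and Gsto2 at least 8.29-fold lower by a bound. Against crypt, y-organoid was lower for Gstk1, at -2.45 (log2), and at least 2-fold lower for 4 more of the 14 measured (background 13.3%). It was higher for Gsto2 by 5.63-fold and for Gstcd by 3.61-fold (background 16.0%).

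Of 18 regulators of these genes, 16 were within 2-fold between the organoids, beside 11638 of 15554 over all genes. Ahr was higher in o-organoid, at 1.41 (log2), and Rxra lower, at -1.15. Nfe2l2, which encodes Nrf2, had 2.88 in o-organoid, 2.63 in y-organoid, 4.08 in crypt and 3.59 in intestine. Nr1i2, which encodes Pxr, had 0.94 in o-organoid, 1.43 in y-organoid, 2.40 in crypt and 2.21 in intestine. Both were thus lower in each organoid than in the tissue samples. Hnf4g, a nuclear receptor of gut epithelium, differed from crypt by -1.85 (log2) in o-organoid and by -2.63 in y-organoid.

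Other known targets of xenobiotic and stress receptors were also examined, of which 5 of 11 measured were at least 2-fold higher in o-organoid than in y-organoid (background 8.25%) and 1 was lower (background 16.9%). Cyp2b10, a cytochrome P450 induced through Car, had 4.59 in o-organoid, -1.15 in y-organoid, 6.76 in crypt and 6.01 in intestine. Cyp3a11, induced through Pxr, had 2.23 in o-organoid, -1.45 in y-organoid, 5.09 in crypt and 5.85 in intestine. Aldh1a1 read 6.58 in o-organoid, 2.84 in y-organoid, 6.45 in crypt and 5.70 in intestine. All 3 were lowest in y-organoid, as were 5 of the 7 measured Ugt2 genes at 4-fold or more below crypt. Hmox1, the stress-induced heme oxygenase, was highest in o-organoid at 2.04, with -0.79 in y-organoid, -2.16 in crypt and -0.82 in intestine. Nqo1, Srxn1 and Txnrd1 of the same list were within 2-fold between the organoids, at 0.92, 0.02 and -0.17 (log2). Against crypt, o-organoid differed by 1.61 for Nqo1, -0.87 for Srxn1 and -0.32 for Txnrd1.

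The antioxidant response element is the DNA site of Nrf2, and its core letters TGACNNNGC were searched on both strands in RefSeq promoter windows of 300 bases (250 before to 50 after the start, GRCm38.p6). Of the 45 members, 38 matched a window, and 3 of their 46 windows (6.52%) held the letters, against 12.4% of all 32851 windows. The 3 were Gsta3, Gstm5 and Gstm7. The part of the Gsta3 window before the start (chr1:21240335-21240584, GRCm38.p6, plus strand) is printed because Gsta3 had the largest difference of any member between o-organoid and crypt, with the letters found in capitals.
Gsta3 promoter: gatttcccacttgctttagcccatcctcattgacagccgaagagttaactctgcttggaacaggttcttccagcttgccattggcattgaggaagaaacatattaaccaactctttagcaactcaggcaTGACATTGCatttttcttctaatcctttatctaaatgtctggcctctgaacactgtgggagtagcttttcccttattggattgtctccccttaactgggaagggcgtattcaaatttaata
The match lies 121 bases before the start and is a description of the letters only.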

How the data were processed

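Each of the 4 samples was hybridised to 1 Agilent 1-colour array. The deposited scanner files hold spot intensity made with Agilent Feature Extraction 10.7.3.1 (the tool per the submitters' processing notes, the version per the file headers), which had already corrected the background. The deposited value table holds a ratio of each processed signal to its array's median, as a comparison with the scanner values showed.

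From the processed intensity, log2 was taken and the array's 75th percentile over the 43020 non-control spots was subtracted. Repeated spots of a probe were averaged without outlier spots, and a gene's brightest probe, by its mean over the 4 arrays, stood for the gene. Differences are given where both arrays were well above background; where 1 was not, a bound is given, which takes for the dim array its lowest signal well above background or the probe's own signal, whichever was larger. Calls are at 2-fold and 4-fold. There is no test, because each group has 1 array, and the number of arrays limits the precision.

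Probe positions are those of the deposited files (mm9); the files' gene names were checked against RefSeq and no member's name changed. Promoter sequences are from RefSeq (GRCm38.p6), and probe sequences from the deposited files. Every member was accounted for; in each family and comparison, up to 3 members with the largest difference and the one with the largest bound were described array by array, and likewise up to 3 genes of each supporting list. The members and lists were chosen with earlier results of these data known, and the comparison of 5′ with 3′ probes (at least 60 bases and at most 200 kb apart) and the chromosome order were chosen after seeing the data. The alternatives were normexp background correction (limma 3.58.1, offset 50), quantile normalization, a percentile over probes above background on all arrays, the deposited table, no filter on dim probes, the mean over a gene's probes and the 4-fold threshold. Python 3.11.15, pandas 2.3.3, numpy 2.4.6 and R 4.3.3 were used.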

Additional observations from a re-analysis of the deposited data

Results flagged for a closer look

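In 4 genes the organoids lay on opposite sides of crypt, each by more than 2-fold. The share of all genes that did so was not counted, so the 4 are given for their values only. For Ugt2b5 the difference from crypt was 1.06 (log2) in o-organoid and -3.39 in y-organoid. For Ugt2b36 it was 1.74 in o-organoid and -2.58 in y-organoid. For Ugt2b38 it was 1.22 in o-organoid and -2.15 in y-organoid. For Gstm7 it was 1.13 in o-organoid and -1.27 in y-organoid, but its second probe gave -0.72 for y-organoid, and over the settings the values came as near 0 as 0.84 in o-organoid and -0.60 in y-organoid, within 2-fold on the same sides. With 1 array a group the difference between the organoids was not tested, and both values of a gene use the same crypt array.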

How the results depend on the processing

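No paired analysis was possible because each group has 1 array. Several member counts and medians moved, and 2 medians changed sign with no filter on dim probes. With the deposited table, crypt against intestine had 14 members at least 2-fold higher and a median of 0.96, o-organoid against y-organoid had 21 higher, 0 lower and a median of 1.30, and the medians against crypt were 0.76 for o-organoid and -0.78 for y-organoid. With no filter on dim probes the medians were 0.12 for crypt against intestine, 0.13 for y-organoid against crypt, -0.15 for o-organoid against crypt and 0.23 for o-organoid against y-organoid, and the lower counts were 4 for crypt against intestine and 4 for o-organoid against y-organoid. This setting adds the dim genes, whose values are background. The percentile over probes above background on all arrays gave medians of 0.0172 for crypt against intestine, -0.0599 for y-organoid against crypt and 0.82 for o-organoid against crypt. Normexp gave 1 lower for crypt against intestine and medians of 0.38 for o-organoid against crypt and 0.77 for o-organoid against y-organoid. The mean over all probes of a gene gave 1 lower for crypt against intestine, 1 lower and a median of 0.91 for o-organoid against y-organoid, and a median of 0.77 for o-organoid against crypt. At 4-fold the counts were 0 higher and 1 lower for crypt against intestine, 7 lower for y-organoid against crypt, 3 higher for o-organoid against crypt and 0 lower for o-organoid against y-organoid. Normexp also brought these members nearer 0: crypt against intestine for Sult1a1 (-2.45), y-organoid against crypt for Ugt2a3 (-3.95), Ugt2b36 (-1.95), Ugt2b37 (-1.84) and Ugt1a6a (0.95), and o-organoid against y-organoid for Ugt2a3 (1.54), Ugt2b36 (3.54), Ugt2b37 (2.41) and Ugt2b5 (3.85). Except where the construction of a setting shows it, the cause was not tested. Under every setting the Ugt2 median stayed between -3.10 and -1.95 for y-organoid against crypt. With 1 array a group, the spread between samples is unknown, and probes below background give bounds only.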
